A study of Mus musculus with 2 samples.

Results

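The groups described here are sets of isoforms of 1 gene that share every intron and differ in where the last exon stops. Isoforms of the deposited annotation whose source is not the reference and that hold at least 1 intron were grouped by gene and identical intron chain, and a group was kept when its most proximal and its most distal 3′ end, read along the strand of the gene, lay at least 100 nt apart. This gave 6396 groups among 68295 chains (9.37%, exact 95% interval 9.15% to 9.59%). The groups held 14946 of 79069 isoforms (18.9%), 4482048 of 11030620 supporting reads (40.6%) and 4022 of the 12409 genes with a chain, so the background share of genes with a group was 32.4% (31.6% to 33.2%). Of the 14946 isoforms, 2270 carried the name of a reference transcript. In the whole annotation, 14490 of 14491 isoforms so named had the introns and both ends of that reference transcript. Proximal means the 3′ end that comes first along the strand of the gene and distal the one that comes last, wherever the stop codon lies.

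In tandem alternative polyadenylation, the cleavage and polyadenylation machinery cuts a nascent transcript at one of several sites in the same last exon. CPSF binds a hexamer such as AATAAA a short way before the cut, and CstF and CFIm bind sequences around it. The coding sequence usually stays the same and the 3′UTR becomes shorter or longer, with it the sites for RNA-binding proteins and miRNAs. Proliferating cells are known for shorter 3′UTRs than resting cells, and in satellite cells, the stem cells of skeletal muscle, site choice in single genes such as Pax3 has been tied to escape from miRNA control.

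The reads came from muscle stem cells (MuSCs) of Pax7creERT2 R26-eYFP fl/fl mice on the C57BL6 background, aged 3 months. Pax7creERT2 limits recombination to cells that expressed Pax7 when tamoxifen was given (100 μL of 20 mg/ml daily for 5 days), and cells were sorted on YFP. Quiescent cells came from uninjured hindlimb muscle 2 weeks after the last tamoxifen dose, and activated cells from muscle taken 72 h after 40 μL of 1.2% barium chloride; all mice carried the same alleles and tamoxifen label, and the number of mice pooled is not given in the sources used here. Both kinds of cells entered 1 capture with the 10x 3′ protocol. The GEMs were divided into a 10% library, sequenced with short and nanopore long reads, and a 90% library, sequenced with short reads. The isoform annotation came from the 10% library with all its cells together, so there are no replicates, no test was run, and every interval below covers counting error only.

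The closing bases of 5 groups are shown as examples, 3 with a signal at both ends, as found in 26.7% of the groups with both sequences known, and 2 with a signal at the distal end alone, the commonest case (42.7%). Each run below is the last 30 bases of an end, 5′ to 3′ on the strand of the transcript, taken from Gencode vM21 transcript sequences on mm10, and capitals mark AATAAA or ATTAAA. Lgals1 (ENSMUSG00000068220.6), which encodes galectin-1, ended on the plus strand with runs at chr15:78930162-78930191 and chr15:78930436-78930465, and both hold a signal. Rps23 (ENSMUSG00000049517.8), a small ribosomal subunit protein, ended at chr13:90924695-90924724 and chr13:90924921-90924950 on the plus strand, again with 2 signals. Lman2 (ENSMUSG00000021484.8), a cargo receptor of the early secretory pathway, shows a widely separated pair on the minus strand, at chr13:55346746-55346775 and chr13:55343833-55343862. Psmd11 (ENSMUSG00000017428.16), a regulatory subunit of the 26S proteasome, has no signal at its proximal end at chr11:80471880-80471909 on the plus strand, where 18 of the next 20 genomic bases were A, and has one at its distal end at chr11:80473219-80473248. Hspa8 (ENSMUSG00000015656.17), the constitutive cytosolic Hsp70 chaperone, is shown for a proximal end that lies in coding sequence, at chr9:40804933-40804962 on the plus strand, with its distal end at chr9:40805171-40805200.
Lgals1 proximal: ccctcAATAAAggcagctgcctctgctccc
Lgals1 distal: catttgtcttAATAAAagccagaaaccact
Rps23 proximal: ggaaacacagtAATAAAttttcatattctg
Rps23 distal: ttAATAAAgtgtcatagaggtctttaattg
Lman2 proximal: ttcaaagaaataATTAAAgtattttcatac
Lman2 distal: aaagaAATAAAtccctatttgttcagacta
Psmd11 proximal: ctggccaacacgggaatggggaaattgctt
Psmd11 distal: gttccAATAAAataattttttttttcaaaa
Hspa8 proximal: ctgcagagaaggaagaatttgagcatcagc
Hspa8 distal: ggaatAATAAAactatttaaattggcacca

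Most groups were plain pairs. Of the 6396 groups, 4296 held 2 isoforms, 2056 held 3 and 36 held 4; 4851 had 2 distinct ends and 1530 had 3. A single group was found in 2655 genes, while 841 genes had 2 and 236 genes had 4 or more, among them Hnrnpk, an RNA-binding protein, and H2-D1, a class I histocompatibility antigen, with 12 groups each. Of the genes with a group, 98.0% were protein coding, against 93.5% of all genes with a chain. In 4206 groups (65.8%) a proximal and a distal isoform began at the same base, and in 93.1% their starts lay within 100 nt.

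Finding a group depended on how many reads a chain had. Groups held a median of 130 supporting reads per chain, against 21 in the 61899 other chains. Only 0.737% of chains with 10 to 19 reads were groups, while 16.0% of those with 50 to 99 reads and 47.7% of those with at least 500 reads were. A gene without a group may therefore have had too few reads to show a second end, because each isoform in the annotation has at least 5 reads. The groups also followed the reference more closely: 67.0% held all introns of a reference transcript, against 19.5% of the other chains, with a median of 6 introns in both.

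The ends of a group lay a median of 573 nt apart (quartiles 279 and 1015 nt, range 100 to 3242 nt). Distances under 200 nt were found in 1009 groups (15.8%), those of 500 to 999 nt in 1921 and those of at least 2000 nt in 196 (3.06%). The last exon measured a median of 429 nt up to the proximal end and 1166.5 nt up to the distal end, against 612 nt up to the most distal end of other chains. At the proximal end a median of 56.8% of the last exon was missing.

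The 100 nt limit cut through a continuous range of distances, so the groups nearest to it are given as values. Just inside it stood Rmdn1 with ends 100 nt apart (20 proximal and 22 distal reads), and Chkb, a choline kinase, with 15 and 165 reads, Dse with 22 and 58 reads, and 2 chains of Ctsl, which encodes the lysosomal protease cathepsin L, all 101 nt apart. Just outside it, at 99 nt, stood Fam110b with 24 and 37 reads and 4 chains of Myc. A further 533 chains had 2 or more ends under 100 nt apart. The authors' software joins ends within 100 nt of a reference end to that end, so short distances may be under-counted.

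More reads lay on the distal end in 4458 groups (69.7%), more on the proximal end in 1868, and the same number on both in 70. Summed over groups, the proximal ends held 1303428 reads and the distal ends 2672191, or 67.2% of both; intermediate ends, present in 1471 groups, held 506429. The distal share of a group had a median of 65.0% (quartiles 45.5% and 81.8%) and ran from 0.569% to 99.9%. In 1540 groups it was between 40% and 60%, in 776 it was over 90% and in 98 it was under 10%. The share varied little with the distance: its median was 65.8% in groups under 200 nt and 67.5% in those of at least 2000 nt.

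**Figure D1:**
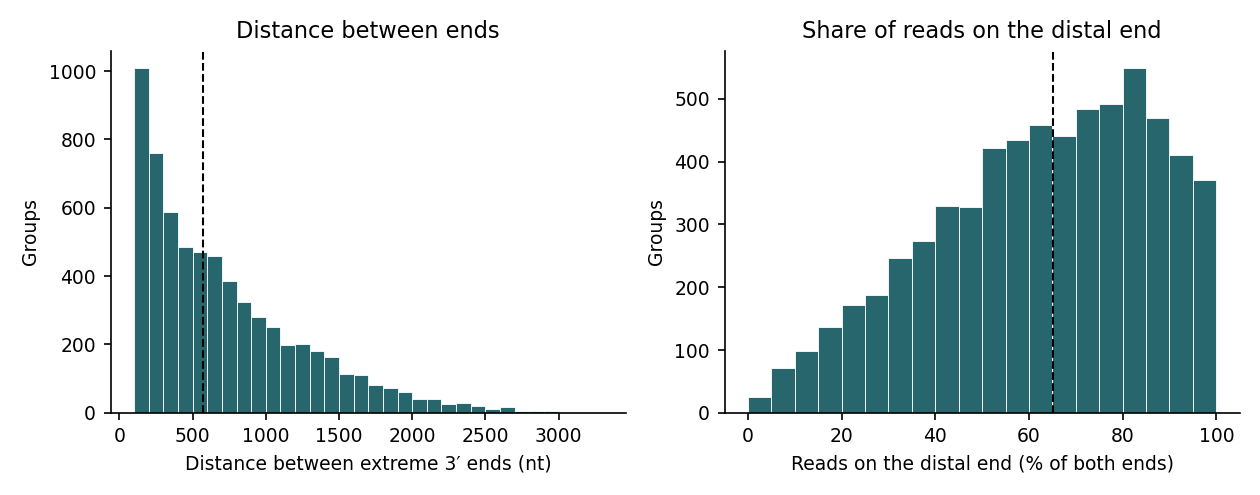
Number of groups (y axes) by the distance between their extreme 3′ ends in nt (left) and by the reads on the distal end as a percentage of the reads on both extreme ends (right), in all 6396 groups. Dashed lines mark the medians, 573 nt and 65.0%; the distances pile up at the 100 nt limit and thin out toward 3242 nt, while most shares lie above 50%.

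The 10 groups with the most reads belonged to genes that many cells use heavily, and 9 of them were read mostly up to the distal end or to an intermediate one. Rplp0, the stalk protein of the large ribosomal subunit, held 6307 proximal and 102929 distal reads, 218 nt apart. Eef1a1, the elongation factor that brings aminoacyl-tRNA to the ribosome, held 3399 proximal, 6968 intermediate and 94353 distal reads. Rpl13 held 3241 and 66690 reads and Hspa8 2270 and 51654 reads, and in both the proximal end lay before the stop codon. These 4 groups had distal shares between 94.2% and 96.5%.

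The light and heavy chains of ferritin, the iron storage protein, and the cytoskeletal gamma-actin Actg1 had the most one-sided ends. Ftl1 had 595 proximal against 60560 distal reads, Fth1 195 against 46366, and Actg1 377 against 56042, and the distal share reached 99.6% in Fth1. Lgals1 and Rps23 divided their reads more evenly. Lgals1 had 32209 proximal and 52422 distal reads (distal share 61.9%, interval 61.6% to 62.3%). Rps23 was the single one of the 10 with more proximal reads, 37370 against 11706 (23.9%, 23.5% to 24.2%), and Rpl4 had most of its reads, 45418, on an end between its proximal (1974) and distal (13098) ends. Most of these genes have processed pseudogenes or near-identical copies elsewhere in the genome, and the authors discarded reads that could not be assigned uniquely, so their counts are uncertain.

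Among groups with at least 20 reads on each end, the longest distance in 1 gene was 3242 nt, in Coa5, a factor for assembly of cytochrome c oxidase. It held 28 proximal, 116 intermediate and 221 distal reads, and its 3′UTR measured 260 nt to the proximal and 3502 nt to the distal end. Dag1, which encodes dystroglycan, the link from the cytoskeleton of muscle to the basal lamina, followed at 3194 nt with 22, 115 and 228 reads. Its proximal end lay before the stop codon. The closing bases of the Dag1 distal end held no signal, and 15 of the 20 bases after it were A. Tfam, which packages and transcribes mitochondrial DNA, had 35 proximal and 291 distal reads 2982 nt apart, but most of its reads (625) lay on an intermediate end. These 3 genes had distal shares between 88.8% and 91.2%.

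In Lman2 and Zadh2, by contrast, most reads on the extreme ends were proximal. Lman2 held 780 proximal, 538 intermediate and 182 distal reads over 2913 nt, a distal share of 18.9% (16.5% to 21.5%), with the signals printed above at both ends. Zadh2, on chromosome 18, held 272 and 43 reads over 2899 nt (13.7%, 10.1% to 17.9%), and its proximal end lay before the stop codon. Lims1, a focal adhesion adaptor, had 32 and 177 reads over 2908 nt, and its proximal end was followed by 17 A in 20 bases although a signal preceded it. The Lims1 chain had only 1 intron, and its 2 isoforms began at different bases. Arl4a, Nqo2, Kctd20 and Trp53inp2 made up the 10, with distances from 2781 to 2895 nt and distal shares from 43.4% to 87.9%. In Arl4a and Kctd20 the proximal end lay before the stop codon.

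**Figure D2:**
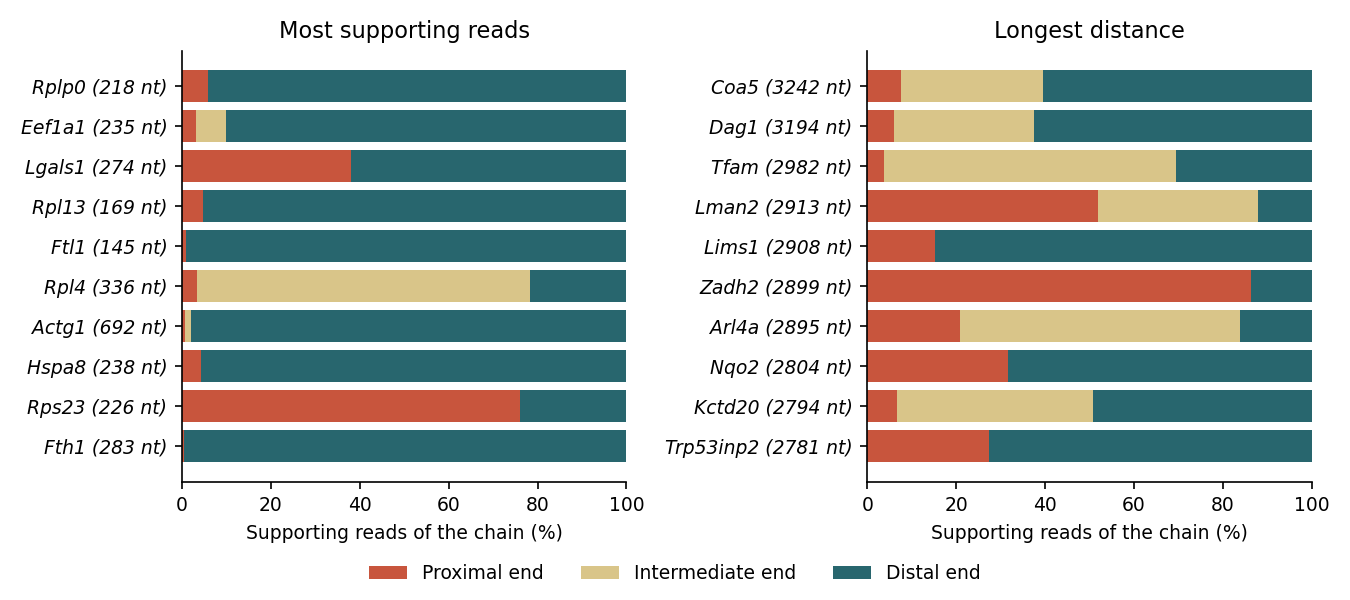
Supporting reads on proximal, intermediate and distal ends as a percentage of the reads of the chain (x axis) in the 10 groups with the most reads (left) and the 10 with the longest distance among those with at least 20 reads on each end (right), with the distance in nt beside each gene. Distal ends fill most of the bars on the left except in Rps23 and Rpl4, and intermediate ends fill much of Tfam, Arl4a and Lman2 on the right.

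A polyadenylation signal stood before distal ends more often than before proximal ones. AATAAA or ATTAAA was searched on the transcript strand in the last 40 bases, in ends whose sequence was known. It was found at 36.2% of proximal ends (2145 of 5919, 35.0% to 37.5%) and at 69.3% of distal ends (3924 of 5662, 68.1% to 70.5%). The most distal ends of other chains had it at 64.0% (32422 of 50623). A window of the same length placed 100 nt before the end held a hexamer in 1.74% of proximal and 4.93% of distal cases, so both kinds of ends stood well above that background.

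AATAAA made up most matches. It was present at 26.2% of proximal and 55.7% of distal ends, and ATTAAA at 11.2% and 16.3%. The first base of the hexamer was most often 20 bases from the proximal end and 22 bases from the distal end, the distance also seen in other chains. Of 5590 groups with both sequences known, 1495 (26.7%) had a signal at both ends, 2387 (42.7%) at the distal end alone, 503 at the proximal end alone and 1205 (21.6%) at neither.

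**Figure D3:**
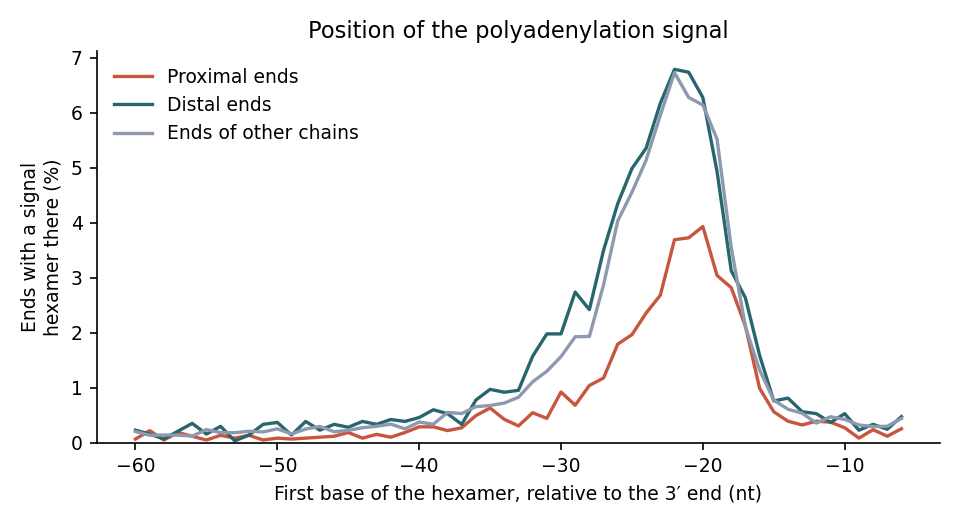
Percentage of ends with a signal hexamer (y axis) whose first base lies at each position relative to the 3′ end in nt (x axis), for proximal ends, distal ends and the most distal ends of other chains. All 3 lines peak 20 to 22 bases before the end, at 3.93% for proximal and 6.79% for distal ends, and the line of other chains runs close to that of distal ends.

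The signal became more frequent as reads on an end increased. Proximal ends with 5 to 9 reads had it in 25.5% of cases (22.1% to 29.1%), those with 50 to 499 reads in 43.1% and those with at least 500 reads in 64.4% (58.9% to 69.6%). Distal ends rose from 55.5% (48.0% to 62.8%) to 82.7% (79.8% to 85.4%) over the same ranges. In the groups with more proximal than distal reads, 49.9% of proximal and 61.9% of distal ends had a signal, against 30.4% and 72.4% where the distal end had more. Distal ends thus led in every class of reads.

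**Figure D4:**
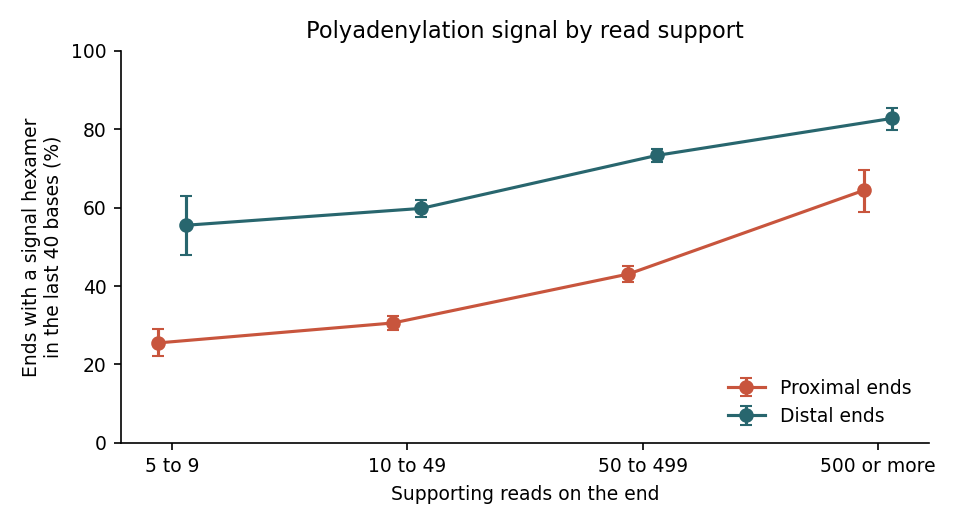
Percentage of ends with a signal hexamer in their last 40 bases (y axis) by the number of supporting reads on that end (x axis), with exact 95% intervals for counting error as bars. Proximal ends go from 25.5% to 64.4% and distal ends from 55.5% to 82.7%, and the intervals of both kinds of ends do not overlap in any class.

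Oligo-dT can also prime on A-rich stretches inside a transcript, which leaves an apparent end with A in the genome after it. An end was called A-rich when at least 12 of the next 20 genomic bases, or 6 in a row, were A. This held for 20.9% of proximal ends (1203 of 5767, 19.8% to 21.9%), against 1.13% of windows of the same length 100 nt earlier. Of 5713 proximal ends with both properties known, 1934 (33.9%) had a signal and no A-rich stretch, 1076 (18.8%) an A-rich stretch and no signal, 100 (1.75%) both, and 2603 (45.6%) neither. The A-rich share was 20.2% at proximal ends of 5 to 9 reads and 12.8% (9.29% to 17.0%) at those of at least 500 reads. For distal ends only 43.6% had known bases beyond the end, under the 80% needed, so no share is read from them. Leaving out A-rich ends left 5097 groups, with a median distal share of 65.0%. Most distal ends had no known bases after them and could not be called A-rich, so this value is no full check of distal ends.

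Reference annotation held the distal end more often than the proximal one. A reference transcript of the gene ended within 50 nt of 38.2% of proximal (2444) and 65.8% of distal ends (4210), and of 61.0% of the most distal ends of other chains. Both ends were matched in 1787 groups (27.9%), the distal end alone in 2423 (37.9%), the proximal alone in 657 (10.3%) and neither in 1529 (23.9%). Part of this match is set by the joining of ends to the reference in the authors' software. At a reference end, 40.6% of proximal and 77.5% of distal ends had a signal. Proximal ends away from every reference end still had one in 33.3% of cases (1164 of 3500); for distal ends too few sequences were known there. In 197 groups (3.08%) the distal end lay over 50 nt past the last reference end of the gene.

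The same ends often recurred in other chains of the gene. In genes with more than 1 chain, 63.7% of proximal and 71.4% of distal ends, of 6137 each, lay within 25 nt of an end of another chain. Another annotated gene on the same strand overlapped the stretch between the ends in 228 groups (3.56%) and one on the other strand in 889 (13.9%); in these groups part of the reads could belong to a neighbour.

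Where the stop codon could be placed in the last exon, most proximal ends lay in the 3′UTR. The stop codon lay in the last exon in 4619 groups, and the proximal end followed it in 4023 of them (87.1%, or 62.9% of all groups). In these the 3′UTR measured a median of 275 nt to the proximal and 982 nt to the distal end, a median ratio of 3.10. In 596 groups (9.32% of all) the proximal end lay before the stop codon, so that these isoforms end inside coding sequence. Among the named genes this held for Rpl13, Rpl4, Hspa8, Fth1, Dag1, Zadh2, Arl4a, Kctd20, Fip1l1 and Calcr. The stop codon was in an earlier exon in 352 groups, differed between reference transcripts in 285, and could not be placed in 1140.

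The stretch present only up to the distal end was the longer one and held AU-rich and Pumilio letters in more pairs, at a density close to that of the shared part. This was counted in 3253 of 3432 distinct pairs of ends past the stop codon, with 1208 kb shared by both ends and 2389 kb between them. GC made up 44.9% of the shared part and 42.8% of the part between the ends. ATTTA, the core of AU-rich elements that destabilize mRNA, occurred 1.72 times per kb in the shared part and 1.93 times between the ends, in 36.5% and 61.8% of pairs. TGTANATA, the motif of Pumilio proteins, occurred 0.207 and 0.226 times per kb, in 6.89% and 13.7% of pairs. All letters were searched on the transcript strand, and a match is no evidence of binding.

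Seed matches were counted for 3 miRNAs known from muscle and its stem cells, chosen after the files had been seen. Their mature sequences (RefSeq, GRCm38.p6) are shown with the seed, bases 2 to 8, in capitals, and none of the 3 share a seed. The match to miR-206, ACATTCC, occurred 0.113 times per kb in the shared part and 0.0686 times between the ends. The match to miR-31, TCTTGCC, occurred 0.0819 and 0.0984 times per kb, and that to miR-489, GTGTCAT, 0.0745 and 0.0695 times.
mmu-miR-206-3p (chr1:20679055-20679076, plus strand): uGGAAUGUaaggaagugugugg
mmu-miR-31-5p (chr4:88910614-88910635, minus strand): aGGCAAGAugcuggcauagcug
mmu-miR-489-3p (chr6:3721922-3721944, minus strand): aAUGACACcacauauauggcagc

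In named genes such letters were few and lay on either side of the proximal end. Tpm4, a tropomyosin of non-muscle cells, had 2 matches to miR-206 between its ends and none before them, and Tpm2, the beta tropomyosin of muscle, had 1, while Xrn2 had its single match before the proximal end. Tfam had 6 ATTTA between its ends and none before, and Cav1 had 1 between and 4 before. Vcam1, a surface adhesion protein of satellite cells, had 2 TGTANATA between its ends.

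Chains with other introns but the same pair of ends were compared with each other. Of 5086 pairs of ends in a gene, taking ends within 25 nt as the same, 855 occurred in 2 or more chains (2165 groups, 806 genes). Among 613 pairs with at least 2 chains of at least 50 reads, the distal share ranged over a median of 15.7 points between chains (quartiles 6.79 and 28.0), a range that counting error widens and that grows with the number of chains. In the 445 pairs with exactly 2 such chains, the shares differed by a median of 12.2 points, and the interval of the difference for counting error excluded 0 in 277. Of the 613 pairs, 434 had the same end ahead in every chain. H2-D1 had 10 chains with 1 pair of ends 146 nt apart and distal shares from 18.3% to 51.1%, though near-identical class I genes may share its reads. Hspa5, the Hsp70 chaperone of the endoplasmic reticulum, had 6 chains, with shares from 49.5% to 92.4%.

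The 5 pairs with the widest range were picked after their values had been seen. Snrnp70, the U1 snRNP protein, had a chain of 9 introns with 81 proximal and 1358 distal reads and another of 9 introns with 523 and 52, so distal shares were 94.4% and 9.04%. Cd44, the hyaluronan receptor, had 109 proximal and 455 distal reads in a chain of 8 introns and 2117 and 34 in one of 3 introns, with ends 1450 nt apart in both. Cdkn1a, the cell cycle inhibitor p21, had 4 chains with shares of 90.8%, 67.4%, 49.5% and 18.4% at ends 1145 nt apart. Cox19 ranged over 71.8 points and Nr1d1, a nuclear receptor of the circadian clock, over 71.3 points.

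Groups were frequent among genes whose products act on RNA, which also had more reads than the typical gene. Of the genes for 3′ end processing, 14 of 21 with a chain had a group (66.7%, 43.0% to 85.4%), beside 32.4% over all genes, but they held a median of 479 reads per gene against 168. Proteins that bind 3′UTRs had one in 20 of 30 genes (66.7%; median 483.5 reads) and splicing factors in 29 of 35 (82.9%; median 2483 reads). Cell cycle genes had one in 22 of 36 (61.1%; median 914.5 reads). Cytosolic ribosomal proteins had one in only 31 of 81 (38.3%) at a median of 30317 reads per gene, the highest of the lists. Since the share of chains with a group went up with reads, these shares are not set apart from depth.

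Among the genes of the cleavage machinery, the end with more reads varied, as seen in the most-read group of each gene with at least 20 reads on both ends. Cpsf6 and Nudt21 are subunits of CFIm, which favours distal sites. Cpsf6 held 57 proximal, 370 intermediate and 386 distal reads (distal share 87.1% of both extreme ends). Nudt21 held 21 and 74 reads (77.9%) in a chain of 5 introns, but its main chain of 6 introns, named after its values were seen because only 16 reads were distal, held 2794 proximal reads (0.569% distal, the lowest share of all groups). Over both chains, Nudt21 was thus read almost wholly to the proximal end. Fip1l1, the CPSF subunit that recruits poly(A) polymerase, held 64, 44 and 133 reads (67.5%), and its proximal end lay before the stop codon. Cstf1, Papola (the poly(A) polymerase), Pcf11 and Xrn2 (the exonuclease of termination) lay nearer to an even split, between 45.7% and 57.2%. The Pcf11 chain had 4 introns, and no coding reference transcript shares its last intron. Its ends lay 6431 and 6616 nt from the nearest reference end.

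In the groups of the other 5 genes most supporting reads were proximal. Pabpn1, the nuclear poly(A)-binding protein, held 224 proximal and 43 distal reads (16.1%, 11.9% to 21.1%). Rbbp6 held 338 and 100 reads (22.8%), although long-read UMIs of the same ends, described further on, were 59.7% distal in quiescent-like and 60.5% in other cells, and Cstf2, the CstF subunit that contacts RNA, held 155 and 48 (23.6%). Wdr33, the CPSF subunit that reads the hexamer, held 337 and 112 (24.9%), and Ssu72, a phosphatase of the RNA polymerase II tail, 76 and 30 (28.3%). The chains of Rbbp6 and Wdr33 had 2 and 5 introns. In another chain of Ssu72, of 1 intron and with other ends, 18 reads were proximal, 111 intermediate and 50 distal. With all groups of a gene summed, 6 of the 14 genes had more distal reads and the median distal share was 48.0%, beside 2848 of 4022 genes and 66.0% over all genes with a group.

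Of the muscle stem cell and myogenic genes, 13 of 30 had a group (43.3%, 25.5% to 62.6%; median 1570.5 reads per gene), beside 32.4% of all genes at a median of 168 reads, and with all groups of a gene summed 10 of the 13 had more distal reads, at a median distal share of 85.0%, beside 2848 of 4022 and 66.0% over all genes with a group. The values below are again those of the most-read group with at least 20 reads on both ends. Cd82, a tetraspanin of satellite cells, held 43 proximal and 3743 distal reads (98.9%) 719 nt apart. Heyl, a Notch target of quiescent cells, held 24 proximal, 37 intermediate and 422 distal reads (94.6%, 92.1% to 96.5%) over 2055 nt. Des, the intermediate filament desmin of muscle, held 173 proximal, 4765 intermediate and 4744 distal reads, so that its 2 main ends were an intermediate and the distal one.

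The contractile and surface genes of the list differed among themselves. Tpm1 held 309 and 3616 reads (92.1%), Tpm4 608, 276 and 4918 (89.0%), and Tpm2 165, 99 and 100 (37.7%, 31.9% to 43.9%), so Tpm2 alone of these 3 had more proximal reads. Vcam1 held 136 and 501 reads (78.6%), Cav1, the coat protein of caveolae, 273 and 857 (75.8%), and Calcr, the calcitonin receptor of quiescent satellite cells, 51 and 80 (61.1%, 52.2% to 69.5%). The proximal end of Calcr lay before the stop codon, and the Cav1 chain had only 1 intron. Another group of Vcam1, with ends 1160 nt apart, had only 22.1% of its reads on the distal end. The UMIs of that group were 56.5% distal in quiescent-like and 53.3% in other cells. Sdc4, a heparan sulfate proteoglycan with 9 groups, held 660 proximal, 705 intermediate and 335 distal reads (33.7%), while its long-read UMIs on the extreme ends were 90.9% distal in quiescent-like and 94.1% in other cells. Myh9, the heavy chain of non-muscle myosin, held 205 and 44 (17.7%). This chain had only 2 introns, and no coding reference transcript shares its last intron, so it does not stand for the full mRNA. Myl6, a myosin light chain, held 55 and 3031 (98.2%).

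To see whether the ends differed between the cell populations, the 242 cells of the 10% library were divided by their short reads into 144 quiescent-like cells and 98 other cells, 8 of them in a cluster without a name. Before the shares are read, several facts of these cells stand. Of the 98 other cells, 85 carried a barcode that was also a cell of the 90% library, against 1 of the 144. Quiescent-like cells had a median of 7246.5 short-read UMIs and the others 55841. All 10 quiescence markers had a higher CPM in quiescent-like cells (summed 608.6 against 90.2). The same markers served to name the clusters, so their level is no independent evidence for the name. The 12 activation markers summed to 1422 CPM in quiescent-like and 1014 CPM in other cells, so their sum goes against the name. Of these, Myod1 (1157 against 171 CPM) and Myog (70.1 against 16.6 CPM) were higher in quiescent-like cells, and the rest were lower. Myog was found in 2.08% of quiescent-like and 11.2% of other cells. Immune markers summed to 3.38 CPM in quiescent-like and 236 CPM in other cells (0 of 10 higher in quiescent-like cells). Fibro-adipogenic markers summed to 184 and 81.9 CPM (1 of 7 higher, Col3a1, at 171 against 31.4), smooth muscle and pericyte markers to 145 and 68.8 (4 of 6), and myofibre markers to 111 and 35.0 (5 of 7). Endothelial markers summed to 7.60 and 5.10 CPM and Schwann markers to 0.844 and 2.65, with Cdh5, Emcn, Esam, Myh11 and Myh4 at 0 in both. The part of these other cell types in the shares below was not tested.

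Of the 14946 isoforms in groups, 4539 had a name that the count table also holds. Long-read UMIs could be placed on both ends in 748 groups of 607 genes. The 2 tables list different isoforms, so a name gives the ends for certain and the introns less so. UMIs and supporting reads also gave different shares for the same ends. In the 154 genes with at least 50 UMIs in each population, the distal share of supporting reads had a median of 64.6% and that of UMIs, with both populations summed, 89.4%; the UMI share was the higher one in 147 genes, the 2 differed by at least 20 points in 59, and 36 genes had more proximal reads but more distal UMIs. Nip7, a ribosome biogenesis factor, had 12.7% of reads but 87.3% of UMIs in quiescent-like and 85.6% in other cells on the distal end. Why the 2 counts differ was not tested, so neither share is a direct measure of site use. In these genes the distal UMI share had a median of 91.2% in quiescent-like and 88.8% in other cells. The difference, quiescent-like minus other, had a median of 0.431 points (quartiles −1.95 and 3.49), with 85 genes higher and 69 lower. Its interval lay above 0 in 27 genes and below 0 in 21. Summed over the genes, distal UMIs were 69.7% in quiescent-like cells (45371 distal and 19680 proximal) and 73.6% in other cells (147784 and 52918), so the sum and the median differ in direction.

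Differences of at least 20 points were rare: the share was higher in quiescent-like cells in 5 genes (3.25%) and lower in 2 (1.30%). Eif4a2, an RNA helicase of translation initiation, had 38 of 51 UMIs distal (74.5%) in quiescent-like and 8 of 109 (7.34%) in other cells, a difference of 67.2 points (52.3 to 77.7). Its ends, 134 nt apart on chromosome 16, both carry AATAAA. When every isoform was placed by its 3′ end alone, whatever its introns, the shares were 93.6% of 452 and 88.5% of 1006 UMIs, so the difference shrank to 5.11 points.
Eif4a2 proximal (chr16:23113784-23113813, plus strand): atttattcAATAAAgtatttaattagtgct
Eif4a2 distal (chr16:23113918-23113947, plus strand): aatgttaAATAAAattgtatattcacttta
Anxa7 proximal (chr14:20456170-20456199, minus strand): tcaaattgAATAAAagtcacaacaatctct
Anxa7 distal (chr14:20455277-20455306, minus strand): cAATAAAattgtacacttcttaaaaaccac

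Trip6, a LIM protein of focal adhesions, had 62.0% of 108 UMIs distal in quiescent-like and 29.2% of 168 in other cells, a difference of 32.9 points (21.0 to 43.6) that was 13.8 points by 3′ end alone. Anxa7, an annexin with the ends shown above 893 nt apart, had 58.4% of 101 against 32.7% of 367 (25.7 points, 14.8 to 35.9), but 17.6 points by 3′ end alone and 12.6 points at a clustering resolution of 1. Zfp593 had 92.5% of 106 against 70.8% of 130, and Tmem38b, a cation channel of intracellular membranes, 75.3% of 77 against 54.7% of 75. In these 5 genes the distal share was the higher one in quiescent-like cells.

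The other direction was led by Psmd11, with 14.3% of 126 against 38.0% of 200 UMIs (−23.7 points, −32.3 to −14.1), whose proximal end precedes the A-rich stretch named above. By 3′ end alone it was −15.3 points. Ncaph2, a subunit of condensin II, had 27.3% of 55 against 48.9% of 317 (−21.6 points, −33.0 to −7.56), and −8.81 points at that resolution. Meg3, an imprinted noncoding RNA, had 11.2% of 2388 against 29.9% of 204, a difference of −18.7 points that was −32.5 points without the unnamed cluster. The last 30 bases of both Meg3 ends held no signal, and 13 of the 20 bases after its distal end were A. Polr2l, a subunit of the RNA polymerases, and Cisd2, an iron-sulfur protein of the endoplasmic reticulum and mitochondria, completed the 10 with 19.6 and 17.8 points higher shares in quiescent-like cells.

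None of these 10 differences can be checked apart from the shared barcodes. With those cells left out, an alternative added after the data had been seen, the other cells kept at most 15 UMIs in any of the 10 genes; 19 genes still had 50 UMIs in each population, their median difference was 2.37 points, and 0 of them reached 20 points. Placing all isoforms by 3′ end alone, also added later, gave 1387 genes with a median difference of 0 points, 476 higher and 475 lower, and 17 genes at 20 points or more, 4 of them higher and 13 lower in quiescent-like cells, so the balance of these genes turned. Between these populations no general shift toward proximal or distal ends was thus seen at this depth, and 1 capture cannot separate population from cell quality or library.

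**Figure D5:**
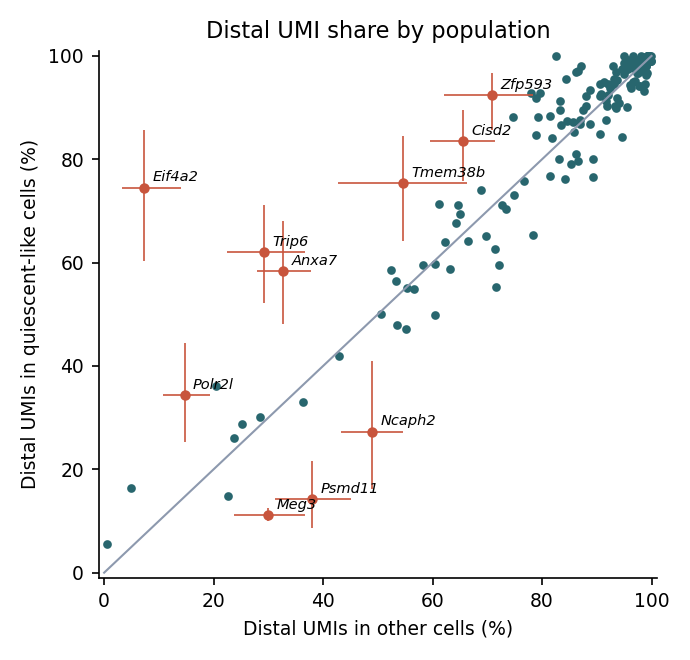
Distal share of UMIs in other cells (x axis, %) and in quiescent-like cells (y axis, %) of the 10% library for 154 genes, 1 point per gene. The line marks equal shares, and the 10 genes with the largest difference are named, with exact 95% intervals for counting error; most genes lie close to the line, Eif4a2 far above it and Psmd11, Ncaph2 and Meg3 below it.

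The genes for 3′ end processing were read in the short reads of the same cells. Of 19 with at least 50 UMIs, Rbbp6 had a CPM at least 2-fold higher in quiescent-like cells (97.1, 80.1 to 116.5, against 35.2, 30.3 to 40.6), where 14.5% of all 7210 genes were. Nudt21 (45.6, 34.2 to 59.5, against 182, 171 to 194), Cpsf2, Cstf1, Sympk and Ssu72 were at least 2-fold lower, 5 of 19 beside 33.2% of all genes. The median ratio of CPM over the list was 0.784, close to 0.770 over all genes. In summed cells, a smaller share of cells with the RNA and less RNA per cell cannot be told apart.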

How the data were processed

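1 capture of mouse MuSCs was measured. The authors called bases with Guppy 1.8.1, aligned long reads to mm10 with minimap2 2.17 and Gencode vM24, and used FLAMES to make the isoform annotation; it drops isoforms with fewer than 5 full-length reads and joins ends close to the reference. The authors deposited UMI counts per isoform (FLAMES) and per gene (scPipe), without normalization; the submitters' processing notes also name Cell Ranger 1.3. The long-read count table held 8297203 UMIs over 68065 isoforms, and the short reads gave 6772259 (10% library) and 39044129 UMIs (90% library) over 1991 and 3001 barcodes, of which 634 are shared. Columns of samples outside the labels: 0.

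Groups were found as described above. Reads of isoforms ending within 25 nt of an extreme end were summed for it, and other ends were intermediate. Reference transcripts came from Gencode vM21 (same assembly). Bases were rebuilt from 141767 transcript sequences, with 0 bases in disagreement, because no genome of the build was used here; ends outside reference exons have no known sequence. Signals, A-rich stretches and motifs were exact matches. Cells were the 242 and 611 barcodes with the most UMIs, normalized with sctransform 0.4.2 and clustered in Seurat 5.3.0 (R 4.3.3; 30 components, resolution 0.6). A cluster was named from 3 markers, each in 10% of cells and 2-fold higher after adding 10 CPM. The joint clusters followed the libraries: 144 of the 146 cells of the quiescent-like cluster were of the 10% library. Which library gave most quiescent-like cells depended on keeping the barcodes with the most UMIs. With barcodes of at least 1000 UMIs and 500 genes, quiescent-like clusters held 1191, 219 and 152 cells, of which 17, 12 and 152 were of the 10% library. These clusters thus still followed the libraries. Doublets were not removed. Shares have exact Clopper-Pearson 95% intervals (scipy 1.17.1, Python 3.11.15) and differences Newcombe intervals; reads without independent molecules make them too narrow. Functions were tested on simulated data. No test was run, since isoforms, genes and cells of 1 capture are not replicates.

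Genes named were the 10 groups with the most reads, the 10 longest with at least 20 reads on each end, the 10 genes with the largest difference in distal UMI share at 50 UMIs or more in each population, members of the 3′ end processing and myogenic lists with at least 20 reads on each end, and the 5 groups on each side of the 100 nt limit. Outside this rule, and after their values had been seen, genes were named for the most groups (Hnrnpk, H2-D1), for many chains with 1 pair of ends (H2-D1, Hspa5), for the widest range between such chains (Snrnp70, Cd44, Cdkn1a, Cox19, Nr1d1), for a gap between reads and UMIs (Nip7) and for further chains of Nudt21 and Ssu72. The groups, the lists and these rules were chosen with earlier results of these data known. Alternatives changed the minimum distance, reads, source of isoforms, windows, hexamers, UMI minimums, cell filters and clustering.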

Additional observations from a re-analysis of the deposited data

How the results depend on the processing

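Of 53 recomputed values 31 stayed within the interval of the main value, or for counts within 1.5 times, and 22 moved. Distal ends stayed ahead of proximal ends in read share, signal and reference match. The balance of the genes at least 20 points apart between populations did turn, as given below. With a minimum distance of 500 nt there were 3551 groups. With at least 15 reads on each end the median distal share was 61.7%, the signal stood at 38.5% of proximal ends and a reference end at 68.7% of distal ends. Giving every isoform to the nearer extreme gave a distal share of 63.5%, and counting a pair of ends once per gene gave a median distance of 592 nt. Searching 30 bases found a signal at 33.5% of proximal and 62.8% of distal ends, 60 bases at 37.9% and 71.5%, and 6 more hexamers at 48.4% and 79.6%; proximal ends away from any reference end, added after seeing the data, had it at 33.3%. A stricter limit of 14 A in 20 or 8 in a row left 14.2% of proximal ends A-rich, and 12.2% of distal ends, whose value is void. Within 100 nt a reference end matched 39.6% of proximal ends.

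Genes at least 20 points apart in the distal UMI share, 7 in all, became 32 with at least 20 UMIs and 4 with at least 100. In alternatives added after seeing the data, they became 17 by 3′ end alone (4 higher and 13 lower in quiescent-like cells, against 5 and 2), 3 with isoforms lacking a reference name, and 0 without the shared barcodes, where the median difference was 2.37 points over 19 genes; fewer cells and UMIs entered there. With isoforms lacking a reference name, the difference in Tmem38b turned to −17.8 points, on 15 and 9 UMIs.

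Read depth limits which chains show a second end. The share of A-rich distal ends, and the signal at distal ends away from the reference, could not be judged because too few bases are known there. No paired analysis was possible because there is 1 capture and no replicate, and leaving out a replicate was not possible either.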
